A study of Mus musculus with 18 samples.

Results

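The genes described here take part in skeletal muscle formation: the myogenic regulatory factors Myf5, Myf6, Myod1 and Myog, the transcription factor Mef2c, and Cdh15, which encodes M-cadherin. They are 6 of the 53465 gene identifiers in the deposited table, and each symbol matched 1 identifier. The members were chosen on measured values: the anterior levels in embryos lacking Meis1 and Meis2 against controls, above all those of Cdh15, were known. Those values, and the difference between regions that contains them, are therefore given as a description with no test. The other comparisons were tested, with exceptions named where they occur. The regional comparison in DKO embryos uses the same anterior DKO libraries, so Cdh15 and Myf5 are described there with no test. The regional comparison in controls and the anterior slopes also use anterior libraries behind the choice. Their p-values for Cdh15 and Myf5 carry that limit.

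RNA was sequenced from 9 mouse embryos at embryonic day 9, each cut into a posterior and an anterior piece, which gave 18 libraries. The posterior piece held the axial bud and the 10 to 12 newest somites, the anterior piece held the older somites, and tissue in front of the somites was left out. Each region thus had 5 libraries of controls and 4 of double knockout embryos, called DKO. In DKO embryos Meis1 and Meis2, homeobox genes of the TALE class, were removed with Delta1Cre, which acts where the Notch ligand Delta1 (Dll1) is or has been active. The labels call the other embryos only Control, and the alleles these carried are not given in the sources used here. The control embryos 1 to 5 had 23, 20, 24, 21 and 23 somites, and the DKO embryos 1 to 4 had 22, 24, 20 and 23. Whole pieces of the axis were dissected, so each library mixes somites with neural tube, vessels, blood and other tissue. In such bulk samples, fewer muscle precursors and less RNA per precursor cannot be told apart.

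Skeletal muscle of the trunk comes from somites, whose dorsal epithelium, the dermomyotome, sends cells into the myotome beneath it. Myf5, Myf6, Myod1 and Myog are basic helix-loop-helix factors that bind E-boxes (CANNTG) with ubiquitous partners such as Tcf3 and Tcf12 and are held in check by Id proteins. Myf5 starts early in the young somite, Myog drives terminal differentiation, Myf6 accompanies the first myocytes, and Myod1 comes on later in the mouse trunk. Mef2c works with these factors on muscle genes and is also active in heart, vessels and neural crest. M-cadherin joins myogenic cells to each other and is a marker of the early myotome.

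Levels are given as CPM, counts per megacount of a library after scaling with the trimmed mean of M values (TMM). Library totals ranged from 12.7 to 38.2 megacounts of expected counts, so that 3 counts, taken as the floor, correspond to 0.0791 to 0.233 CPM. The pieces matched their labels in the axial bud list: the summed level of 12 genes such as T and Msgn1 was 96.4 to 136 CPM in anterior and 453 to 864 CPM in posterior libraries. Meis1 averaged 125 ± 8.65 CPM (SD, n = 5) in anterior controls and 102 ± 9.52 CPM (n = 4) in anterior DKO, and 84.5 ± 15.2 against 57.5 ± 11.8 CPM in the posterior pieces. Meis2 averaged 190 ± 10.0 against 143 ± 11.3 CPM in the anterior and 143 ± 16.8 against 99.5 ± 11.4 CPM in the posterior pieces, and counts per gene do not show whether the deleted exons were read. The Y-linked counts of 1 embryo, control 1, went against its sex label in both of its libraries.

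Myf5 and Myf6 are neighbours on the minus strand of chromosome 10, at chr10:107482908-107486134 and chr10:107492853-107494737, with 6718 bp between them (build GRCm38, GENCODE M21). Myod1 lies at chr7:46376474-46379099, Myog at chr1:134289989-134292548, Mef2c at chr13:83504034-83667080 and Cdh15 at chr8:122847966-122867397, these 4 on the plus strand. Cdh15 lies within the gene model Gm20388 of the same strand, with which it shares 0 exonic bases, so reads in its exons count for Cdh15. The other 5 members overlap no annotated gene.

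Promoter windows from 250 bases before to 50 bases after the RefSeq start (GRCm38.p6) were read for 4 members. Those of Myf5, the earliest factor, and Myog, whose levels differed most between regions, are shown 5′ to 3′ on the gene's strand. Capitals mark the MEF2-type motif (CTA and TAG, 4 bases apart) in Myf5 (chr10:107486085-107486384, minus strand) and the E-box CANNTG in Myog (chr1:134289754-134290053, plus strand).
Myf5: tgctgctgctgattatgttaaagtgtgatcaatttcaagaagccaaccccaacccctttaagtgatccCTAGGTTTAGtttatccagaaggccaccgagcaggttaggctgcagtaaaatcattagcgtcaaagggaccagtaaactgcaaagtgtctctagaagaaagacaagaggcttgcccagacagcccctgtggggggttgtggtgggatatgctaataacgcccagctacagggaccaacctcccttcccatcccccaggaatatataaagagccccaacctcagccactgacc
Myog: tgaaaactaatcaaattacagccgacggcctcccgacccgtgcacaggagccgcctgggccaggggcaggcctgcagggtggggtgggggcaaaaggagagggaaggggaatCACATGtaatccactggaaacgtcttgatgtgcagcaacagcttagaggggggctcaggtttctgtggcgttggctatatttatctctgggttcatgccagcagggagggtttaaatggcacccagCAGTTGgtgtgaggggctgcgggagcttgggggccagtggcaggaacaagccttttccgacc

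The Cdh15 window (chr8:122848124-122848423, plus strand) lies downstream of the GENCODE start, within the 5′ UTR of the first exon of that model, because RefSeq places the start further in. In it the MEIS-type motif TGACAG occurred 3 times, all on the reverse strand, at −230, −129 and 7 from the start. Of 32851 RefSeq promoter windows of this length, 19.2% hold it at least once on either strand and 0.204% hold it 3 times or more. The Cdh15 window also held 4 E-boxes CANNTG, as do 6.49% of windows with at least 4. The Myog window held E-boxes at −138 and −12, and 39.6% of windows hold at least 2. The Myf5 window held 0 E-boxes, where 72.3% of windows have at least 1, and 1 MEF2-type motif at −182, found in 3.69% of windows. The 3 windows of Mef2c held 2, 0 and 1 E-boxes, and in all member windows the forms CAGCTG (16.3% of windows) and TGATTGAC (0.77%) were at 0. Each motif was searched on both strands, CAGCTG is itself an E-box, and a match is a string of letters, not a bound site.

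Per kilobase of exon, the only scale on which genes are compared here, Myog had the highest mean level of the members in anterior pieces and Myod1 the lowest in all 4 groups. In anterior controls the means were 11.8 ± 2.03 CPM per kb for Myog, 4.91 ± 0.278 for Myf5, 4.43 ± 0.426 for Cdh15, 2.12 ± 0.444 for Myf6, 1.63 ± 0.200 for Mef2c and 0.124 ± 0.0723 for Myod1 (SD, n = 5). Neighbours in that order whose libraries overlapped were Myf5 with Cdh15 and Myf6 with Mef2c. The anterior DKO order was the same, with means of 13.1 ± 3.58, 8.58 ± 1.73, 7.23 ± 0.545, 2.36 ± 0.766, 1.67 ± 0.252 and 0.217 ± 0.125 CPM per kb (n = 4), and there Myog also overlapped Myf5.

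The order in the posterior pieces was another, led by Myf5, the earliest of the factors. In posterior controls the means were 2.68 ± 0.906 CPM per kb for Myf5, 1.31 ± 0.372 for Cdh15, 1.12 ± 0.845 for Myog, 0.570 ± 0.140 for Mef2c, 0.272 ± 0.147 for Myf6 and 0.0605 ± 0.0602 for Myod1. In posterior DKO they were 3.28 ± 1.07, 1.72 ± 0.603, 1.01 ± 1.52, 0.463 ± 0.0555, 0.274 ± 0.235 and 0.0518 ± 0.0455 CPM per kb. Every pair of neighbours in both posterior orders overlapped between libraries. The exon length of Mef2c joins 31 transcripts into 15.71 kb, so its level per kb is a low estimate where short isoforms prevail.

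**Figure D1:**
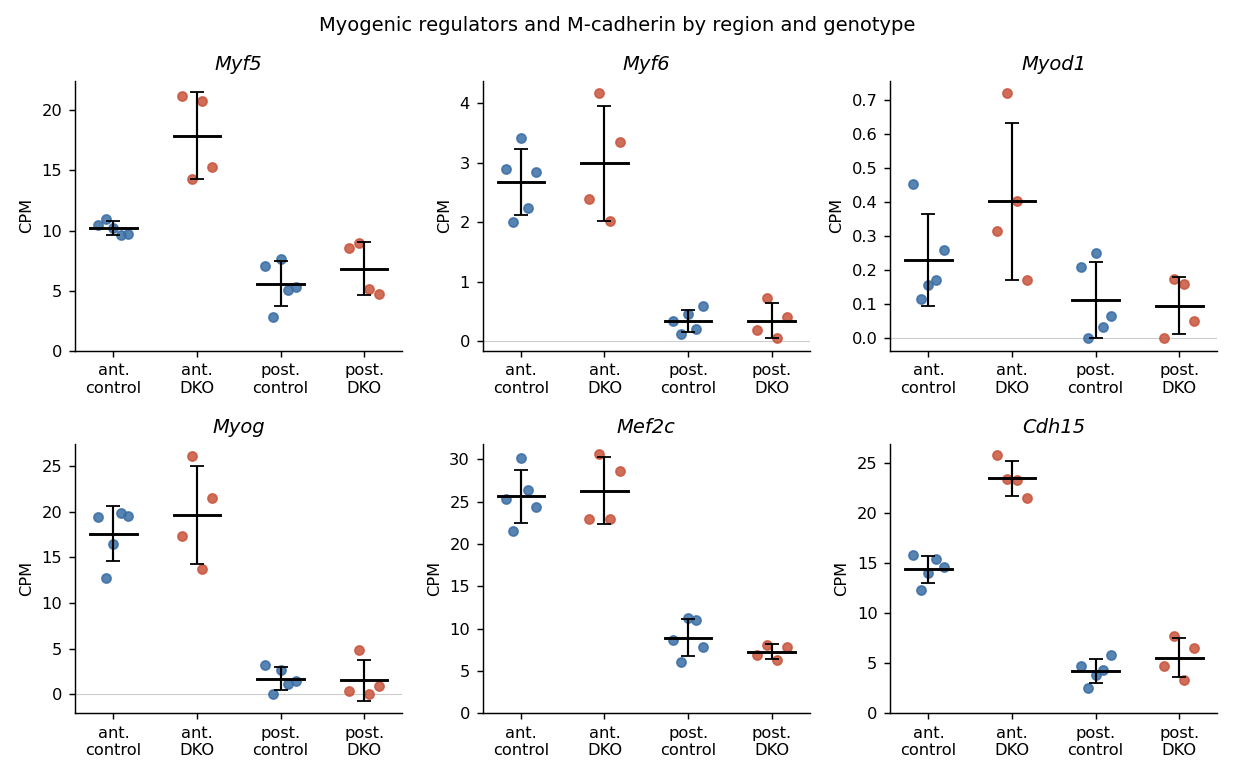
Level of each of the 6 genes in every library, in TMM-scaled CPM on a linear axis that differs between panels, for anterior (ant.) and posterior (post.) pieces of control (blue) and DKO (red) embryos; lines are means and bars are SD (n = 5 control, n = 4 DKO). The red anterior points lie above all blue anterior points for Myf5 and Cdh15 only, and the posterior points lie below the anterior points of the same genotype for all but Myod1.

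The region comparison asked where along the axis the muscle program was transcribed. Of the 6 members, 5 passed the filter on low counts, and all 5 were lower in the posterior than in the anterior piece in both genotypes; the high anterior DKO levels of Cdh15 and Myf5 were part of the choice. Myog and Myf6, the genes of differentiating myocytes, differed most, and Myf5 differed least. Of all genes tested, 13.3% passed the threshold in that direction in controls and 9.70% in DKO embryos. The region shares, p-values and list counts given here come from fits that took the pieces of an embryo as unpaired. Within each genotype, Myf6 and Myog passed the filter on low counts only through their anterior levels, which favours a low posterior level. Both are given with no test. Of the others, Myf5, Mef2c and Cdh15 were called in controls, and Mef2c, the member tested there, in DKO.

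Myf5, the first determination factor, was at 10.5, 11, 10.2, 9.66 and 9.72 CPM in the anterior pieces of control embryos 1 to 5 and at 7.07, 2.84, 7.62, 5.07 and 5.30 CPM in their posterior pieces. Every posterior control library lay below every anterior one, and the anterior libraries were much the more uniform. The log2 fold change of posterior over anterior was −0.87 (SE 0.209, adjusted p = 0.00812, edgeR quasi-likelihood test with Benjamini-Hochberg adjustment). In DKO embryos 1 to 4, Myf5 was at 21.2, 14.3, 20.8 and 15.3 CPM in the anterior and at 8.52, 9.0, 5.13 and 4.71 CPM in the posterior pieces, again with no overlap (−1.37, SE 0.232, given with no test). Within single embryos the posterior level was 25.7% to 74.8% of the anterior level in controls and 24.7% to 63.1% in DKO.

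Myog, the differentiation factor, was at 19.4, 12.7, 16.4, 19.8 and 19.5 CPM in anterior and at 3.16, 0, 2.67, 1.12 and 1.44 CPM in posterior pieces of controls 1 to 5. In DKO embryos it was at 17.3, 26.1, 13.7 and 21.5 CPM in anterior and at 0.303, 4.89, 0 and 0.871 CPM in posterior pieces. The embryos with 20 somites, control 2 and DKO 3, had 0 counts in the posterior piece, which allows up to 0.129 and 0.160 CPM, while their anterior pieces had 329 and 237 counts. Posterior Myog was 5.66% to 16.3% of the anterior level in the other 4 control embryos and 1.75% to 18.7% in the other 3 DKO embryos. The log2 fold change was −3.35 (SE 0.503) in controls and −3.60 (SE 0.782) in DKO by edgeR, given with no test. Without DKO embryo 2, whose posterior level was the highest, the DKO value was −5.48, and limma-voom gave −4.32 in controls and −5.23 in DKO.

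Myf6, also called Mrf4, was at 2.89, 2.01, 3.42, 2.24 and 2.85 CPM in anterior control pieces and at 0.343, 0.129, 0.454, 0.204 and 0.589 CPM in posterior ones. In DKO embryos it was at 2.40, 4.17, 2.02 and 3.35 CPM in anterior and at 0.189, 0.733, 0.0534 and 0.410 CPM in posterior pieces, with no overlap in either genotype. The log2 fold change was −3.00 (SE 0.335) in controls and −3.02 (SE 0.506) in DKO, from 1 to 21 counts in the posterior libraries. Myf6 thus stood at 6.40% to 20.7% of its anterior level in control posterior pieces, against 25.7% to 74.8% for its neighbour Myf5.

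Cdh15 was at 15.8, 12.3, 14, 15.4 and 14.6 CPM in anterior control pieces and at 4.75, 2.53, 3.83, 4.35 and 5.83 CPM in posterior ones. In DKO embryos it was at 25.8, 23.4, 23.3 and 21.5 CPM in anterior and at 4.77, 7.78, 3.31 and 6.50 CPM in posterior pieces. The regions did not overlap in either genotype, and the embryos with 20 somites had the lowest posterior level of their genotype. The log2 fold change was −1.76 (SE 0.177, adjusted p = 1.25e-05) in controls by edgeR and −2.06 (SE 0.220, given with no test) in DKO.

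Mef2c was at 25.3, 21.5, 30.2, 26.4 and 24.4 CPM in anterior control pieces and at 8.62, 6.06, 11.3, 11 and 7.79 CPM in posterior ones. In DKO embryos it was at 23.0, 30.6, 22.9 and 28.6 CPM in anterior and at 6.85, 8.10, 6.25 and 7.89 CPM in posterior pieces. All posterior libraries lay below all anterior ones, with a log2 ratio of −1.51 (SE 0.158, adjusted p = 1.69e-05) in controls and −1.85 (SE 0.137, adjusted p = 1.36e-05) in DKO by edgeR. Posterior Mef2c kept to 28.1% to 41.6% of the anterior level in control embryos and 26.4% to 29.8% in DKO embryos.

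Myod1 was close to the floor everywhere and passed the filter on low counts in no comparison. Anterior pieces had 8, 3, 2, 3 and 4 counts in controls 1 to 5 and 11, 14, 7 and 5 in DKO 1 to 4, or 0.116 to 0.453 and 0.173 to 0.721 CPM. Posterior pieces had 8, 0, 5, 1 and 1 counts in controls and 0, 5, 3 and 1 in DKO. The regions overlapped in both genotypes, and no difference of Myod1 was detectable at this depth. Among the members given with a test, the regions did not overlap in controls for Myf5, Mef2c and Cdh15. Of all genes tested there, 10.7% lay wholly lower in the posterior pieces. In DKO embryos the regions did not overlap for Mef2c, where 12.7% of all genes lay wholly lower.

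The contractile and synaptic genes of muscle differed in the same direction. Of 30 such genes, 22 passed the filter in the libraries of each region alone. Of these, 18 were called lower in the posterior piece in controls and 20 in DKO, with 0 called higher (median log2 fold change −1.72 and −2.01). Myh3, the embryonic myosin heavy chain, averaged 38.0 ± 11 CPM (SD, n = 5) in anterior and 0.181 ± 0.114 CPM in posterior controls. Tnnc2, fast troponin C, averaged 7.41 ± 0.989 CPM and 0.131 ± 0.151 CPM. Both posterior means lie near the floor, and Myh3 and Tnnc2 passed the filter only through their anterior levels, so no test is given for them.

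Upstream regulators of the myotome were called in both directions. Of 16 that passed the filter in each region alone, 8 were called lower posteriorly and 5 higher in controls, and 7 lower and 2 higher in DKO. Lbx1, a gene of migrating limb muscle precursors, passed only through its anterior levels. Pax7, a dermomyotome gene, fell by 1.98 in controls (adjusted p = 8.37e-05), while Six4 (0.50, adjusted p = 0.00115) and Tcf21 (1.90, adjusted p = 4.65e-06) rose, all by edgeR. In DKO embryos Tbx1 had −1.74 (adjusted p = 1.07e-04) and Pax7 −1.61 (adjusted p = 2.02e-04), against 0.46 for Six4 (adjusted p = 0.00125) and 2.65 for Tcf21 (adjusted p = 0.00224).

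Among 21 tested partners and inhibitors of the helix-loop-helix factors with the MEF2 family, 3 were called higher and 4 lower in posterior controls, and 5 higher and 4 lower in DKO. Of all genes 12.1% were called higher in posterior controls and 8.76% in posterior DKO, beside the shares called lower given above, so the control counts are close to the background. Id3, an inhibitor, averaged 202 ± 21.8 CPM in anterior and 141 ± 20.5 CPM in posterior controls (−0.52, adjusted p = 0.00187), and Mdfi, which holds MyoD-family factors inactive, had −0.45 (adjusted p = 0.0106). The Notch effectors Hey1 (0.78, adjusted p = 3.34e-05) and Hes1 (0.61, adjusted p = 8.73e-04) were higher in the posterior controls by edgeR. In DKO embryos Id3 had −0.47 (adjusted p = 4.42e-04), Twist1 −0.51 (adjusted p = 0.0461), Hes1 0.65 (adjusted p = 0.00336) and Bhlhe40 0.92 (adjusted p = 0.00677).

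Of the adhesion and fusion genes around M-cadherin, 16 passed the filter in each region alone, of which 7 were called lower and 2 higher in posterior controls, and 6 lower and 1 higher in DKO. Ctnna2, an alpha-catenin of neurons, averaged 7.12 ± 1.22 CPM in anterior and 1.52 ± 0.220 CPM in posterior controls (−2.23, adjusted p = 9.29e-07), and the integrin subunit Itga4 had −1.46 (adjusted p = 0.0011). Ncam1, the neural cell adhesion molecule, was higher in the posterior piece, at 115 ± 6.51 against 57.3 ± 4.72 CPM (log2 1.0, adjusted p = 2.55e-07), and Ctnna1 by 0.17 (adjusted p = 0.0334). In DKO embryos the values were −1.83 for Ctnna2 (adjusted p = 4.21e-04), −1.43 for Itga4 (adjusted p = 0.00153) and 0.75 for Ncam1 (adjusted p = 1.31e-05).

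Of 17 signals to and from the myotome that passed the filter in each region alone, posterior levels were called higher for 5 and lower for 2 in controls, and for 4 and 2 in DKO. Fgf8, a signal of the axial bud, had a log2 ratio of 2.95 (adjusted p = 8.12e-07) in controls and 3.23 (adjusted p = 7.87e-07) in DKO, and Bmp4 had 1.6 (adjusted p = 1.79e-05) and 2.30 (adjusted p = 7.93e-05). Wnt1, a signal of the dorsal neural tube, had −1.20 (adjusted p = 8.95e-05) and −1.21 (adjusted p = 0.00129), and Wnt7a −0.58 (adjusted p = 0.00422) and −0.83 (adjusted p = 0.0041), all by edgeR. Tissue content differed between the pieces as well: 12 of 12 neural tube genes were called lower in the posterior piece in each genotype. Of the genes that passed in each region alone, 6 of 7 axial bud genes were called higher in each genotype, 4 of 7 neural crest genes in controls and 5 in DKO were called lower, 4 of 12 endothelial genes in controls and 3 in DKO were called lower, and 4 of 9 heart genes in controls and 3 of 8 in DKO were called higher. Of 12 sclerotome genes 3 were called higher and 5 lower in controls, and 2 and 3 in DKO. The 10 erythroid genes were all lower posteriorly in controls and all higher in DKO, with 0 called. The part of this in the members' difference was not tested.

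**Figure D2:**
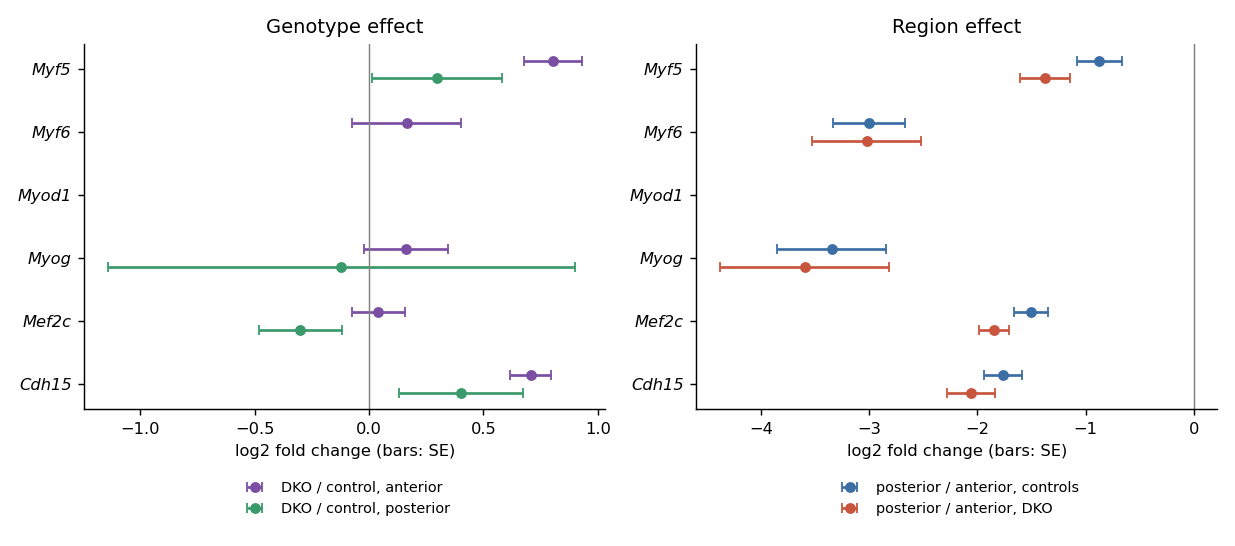
Log2 fold changes of the members with their standard errors (edgeR), DKO over control on the left (purple, anterior; green, posterior) and posterior over anterior on the right (blue, controls; red, DKO). Points are missing where a gene did not pass the filter on low counts; every point on the right lies below 0, from −0.87 for Myf5 in controls to −3.60 for Myog in DKO.

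The posterior comparison of genotypes asked whether the loss of Meis1 and Meis2 changed the members in the axial bud and newest somites. None was called: 0 of the 4 members tested passed the threshold by edgeR or by DESeq2, and 0 had an unadjusted p below 0.05. Over all genes 0.0126% were called and 11% had an unadjusted p below 0.05. The groups overlapped for all 6 members, where 4.29% of genes tested had groups that did not overlap.

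The posterior log2 fold changes of DKO over control were 0.30 for Myf5 (SE 0.283, adjusted p = 0.672), 0.40 for Cdh15 (SE 0.271, adjusted p = 0.556), −0.30 for Mef2c (SE 0.182, adjusted p = 0.522) and −0.12 for Myog (SE 1.02, adjusted p = 0.969), by edgeR. The means behind them were 5.58 ± 1.89 CPM in controls (SD, n = 5) and 6.84 ± 2.23 CPM in DKO (n = 4) for Myf5, and 4.26 ± 1.21 against 5.59 ± 1.96 CPM for Cdh15. Mef2c averaged 8.95 ± 2.21 against 7.27 ± 0.873 CPM and Myog 1.68 ± 1.26 against 1.51 ± 2.28 CPM. For Myf5, Mef2c and Myog the difference of means was smaller than the SD of the controls, and for Cdh15 it lay between the SDs of controls and DKO. Leaving out 1 embryo gave 0.130 to 0.432 for Myf5, 0.198 to 0.581 for Cdh15 and −0.413 to −0.206 for Mef2c. Without DKO embryo 2 the value for Myog was −2.10. The standard error of Myog is so wide that a change of several fold in either direction would not have been seen. Myf6, at 0.344 ± 0.186 and 0.346 ± 0.297 CPM, and Myod1 did not pass the filter.

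The gene lists beside the members gave 0 calls in the posterior comparison as well. Of 17 upstream regulators 13 were lower and 4 higher in DKO, with a median log2 fold change of −0.25 against 0.01 over all genes. The largest negative difference was −1.34 for Sim1 (adjusted p = 0.0978), a gene of the lateral somite. Of 22 contractile genes 12 were higher and 10 lower (median 0.06), with Smyd1 at −0.99 (adjusted p = 0.252) and Actn3 at 0.31 (adjusted p = 0.501). The summed sclerotome markers were at 341 to 529 CPM in controls and 242 to 383 CPM in DKO, and neural tube markers at 292 to 415 against 355 to 478 CPM. All 12 sclerotome genes were lower in posterior DKO (median log2 −0.48), as were 11 of 12 endothelial (−0.20) and 8 of 10 heart genes (−0.55). All 12 neural tube (0.32), 10 erythroid (0.48) and 12 axial bud genes (0.19) and 6 of 7 neural crest genes (0.08) were higher, with 0 called in each list.

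In the anterior pieces, whose values led to the choice of the members, Cdh15 and Myf5 stood apart between genotypes. Cdh15 averaged 14.4 ± 1.38 CPM in controls (SD, n = 5) and 23.5 ± 1.77 CPM in DKO (n = 4), a 1.63-fold difference (log2 0.71, SE 0.0899). Myf5 averaged 10.2 ± 0.580 and 17.9 ± 3.61 CPM, a 1.74-fold difference (log2 0.80, SE 0.127). For both genes the lowest DKO library, 21.5 CPM in DKO 4 for Cdh15 and 14.3 CPM in DKO 2 for Myf5, lay above the highest control, 15.8 CPM in control 1 and 11 CPM in control 2. Of all genes tested, 5.07% had anterior groups that did not overlap.

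The groups of the other members overlapped in the anterior piece. Myog averaged 17.6 ± 3.04 CPM in controls and 19.6 ± 5.36 CPM in DKO (log2 0.16, SE 0.184), Myf6 averaged 2.68 ± 0.561 and 2.99 ± 0.967 CPM (0.16, SE 0.239), and Mef2c averaged 25.6 ± 3.15 and 26.3 ± 3.95 CPM (0.04, SE 0.115). Leaving out 1 embryo gave log2 fold changes of 0.001 to 0.298 for Myog. Myod1, which did not pass the filter, averaged 0.231 ± 0.135 and 0.403 ± 0.232 CPM. In the fit over all genes, 0.0394% were called, among them Cdh15, which the choice of the members had fixed, so nothing is read from it.

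Ratios of members within a library overlapped between the anterior genotypes. Cdh15 over Myog was 0.748 to 0.964 in anterior controls and 0.895 to 1.70 in anterior DKO, and Myf5 over Myog was 0.487 to 0.866 and 0.546 to 1.52. Myf5 over Cdh15 was 0.627 to 0.899 in controls and 0.610 to 0.891 in DKO, nearly the same range in both genotypes. These are ratios of CPM, compared only between libraries and not between genes.

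Eya2, a transcriptional coactivator that works with Six4 and its relatives upstream of the myogenic factors, was the 1 gene called among 17 upstream regulators in the anterior comparison. It averaged 16 ± 1.86 CPM in controls and 29.4 ± 4.16 CPM in DKO (log2 0.88, SE 0.111, edgeR, given with no test). The gene lists were chosen with earlier results of these data known, so nothing is read from this call. Of the 17, 4 were higher and 13 lower in DKO, with a median of −0.08 against 0.00 over all genes, and Lbx1 had −1.07 (adjusted p = 0.377). Among 21 partners, inhibitors and MEF2 genes, 0 were called, with Id4 at 0.29 (adjusted p = 0.755) and Bhlhe40 at −1.01 (adjusted p = 0.252).

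Of 28 contractile and synaptic genes tested in the anterior pieces, 0 were called, 24 were higher and 4 lower in DKO, and the median log2 fold change was 0.22. Chrnb1, a subunit of the muscle acetylcholine receptor, had the largest difference, 1.19 (SE 0.220, adjusted p = 0.0724), and Neb had −0.24 (adjusted p = 0.687). Their summed level was 174 to 324 CPM in controls and 198 to 425 CPM in DKO, so that the groups overlapped. Among 17 adhesion genes 0 were called, with Ncam1 at 0.36 (adjusted p = 0.0522) and Kirrel3 at −0.48 (adjusted p = 0.273). Among 19 signals 0 were called, with Wnt6 at 0.46 (adjusted p = 0.0881) and Bmp4 at −0.85 (adjusted p = 0.234).

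Markers of other tissues moved with the anterior genotypes. The 12 neural tube genes summed to 604 to 749 CPM in controls and 820 to 904 CPM in DKO. All 12 were higher in DKO, and 1, Hes5, was called (log2 0.66, edgeR, given with no test). Nothing is read from this call, since the marker lists were chosen with earlier results of these data known. All 8 neural crest genes were higher in DKO, with 0 called and sums of 219 to 256 against 233 to 311 CPM. The 12 sclerotome genes summed to 409 to 448 CPM in controls and 310 to 382 CPM in DKO, with 3 higher, 9 lower and 0 called. Blood markers of primitive erythroid cells summed to 1073 to 5242 against 1361 to 2288 CPM, endothelial markers to 385 to 434 against 336 to 429 CPM and heart markers to 20.2 to 74.7 against 20.7 to 29.7 CPM, with 0 called in each list. Lower in DKO were 10 of 10 erythroid genes (median −0.67), 9 of 12 endothelial genes (median −0.12) and 8 of 10 heart genes (median −0.87). The part of these differences in the values of Cdh15 and Myf5 was not tested.

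**Figure D3:**
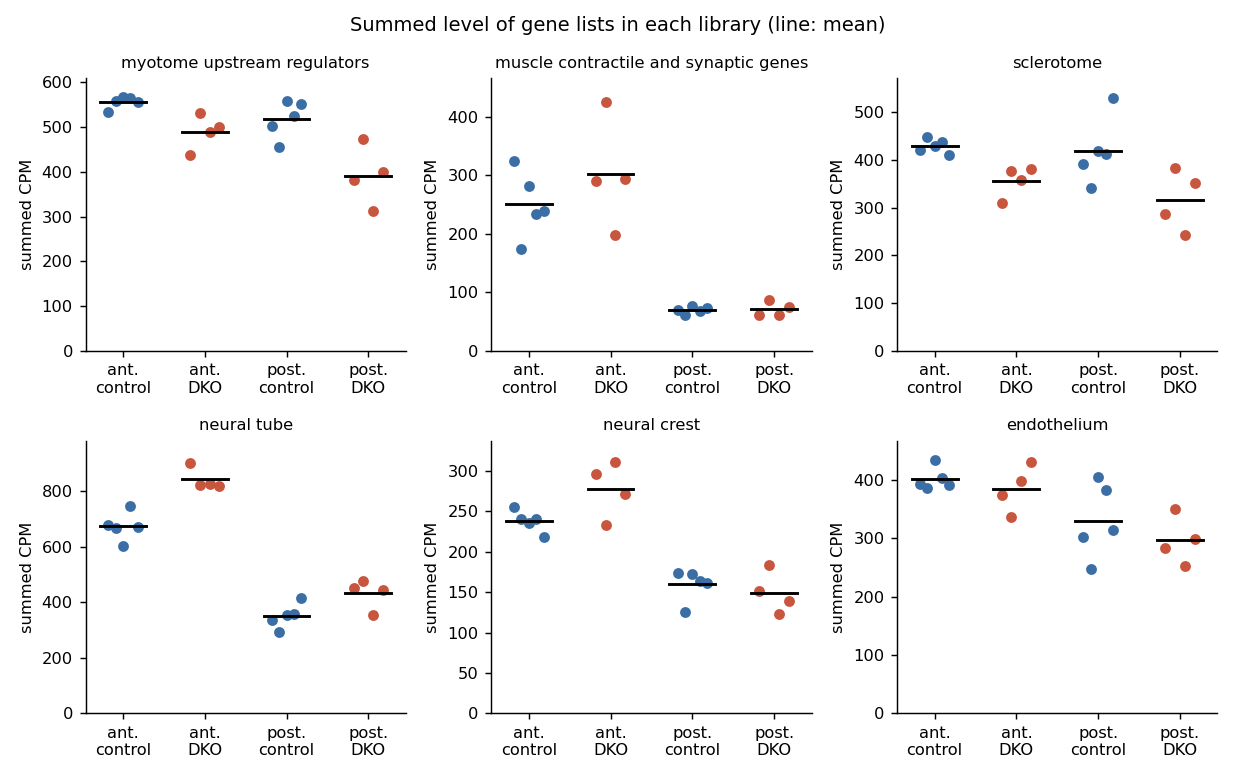
Summed level of 6 gene lists in every library, in TMM-scaled CPM, for anterior and posterior pieces of control (blue) and DKO (red) embryos; lines are means. The anterior DKO libraries lie above the controls for neural tube markers (820 to 904 against 604 to 749 CPM) and below them for sclerotome markers (310 to 382 against 409 to 448 CPM).

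The difference of the genotype effects between regions contains the anterior values and is given as a description. The log2 values of posterior effect minus anterior effect were −0.50 for Myf5 (SE 0.329), −0.34 for Mef2c (SE 0.221), −0.30 for Cdh15 (SE 0.289), −0.25 for Myog (SE 0.958) and −0.03 for Myf6 (SE 0.707). All 5 were below 0. Over all genes 0% were called and 3.45% had an unadjusted p below 0.05, and nothing is read from these values about whether the genotype effect on the members differs between regions.

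The somite number of the embryo was used to ask how the members changed with stage, at fixed genotype. By Y-linked counts the 4 embryos with 20 to 22 somites were female and the 5 with 23 or 24 were male, so that stage and sex cannot be told apart in any slope given here. In the anterior piece 0 of the 5 members tested were called by edgeR, where 0.0328% of all genes were, and 3 of 5 had an unadjusted p below 0.05, where 12.9% of all genes had. Slopes were 0.22 log2 units per somite for Myf6 (SE 0.0498, adjusted p = 0.122), 0.15 for Myog (SE 0.0472, adjusted p = 0.218), 0.09 for Mef2c (SE 0.0275, adjusted p = 0.191), 0.01 for Cdh15 (SE 0.0314, adjusted p = 0.899) and −0.08 for Myf5 (SE 0.0374, adjusted p = 0.418). DESeq2 called 1 of the 5, Myog (adjusted p = 0.0498).

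Along somite number, anterior Myf6 was at 2.01 and 2.02 CPM in the embryos with 20 somites and at 3.42 and 4.17 CPM in those with 24, with the other 5 between. Anterior Mef2c went from 21.5 and 22.9 CPM at 20 somites to 30.2 and 30.6 CPM at 24. Anterior Myf5 in DKO embryos was at 20.8 and 21.2 CPM at 20 and 22 somites and at 15.3 and 14.3 CPM at 23 and 24, whereas the controls lay between 9.66 and 11 CPM at every stage. In DKO embryos alone the Myf5 slope was −0.15 (adjusted p = 0.328) and in controls alone −0.02 (adjusted p = 0.973), by edgeR, and the difference of these slopes was not tested.

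In the posterior piece the slopes of the 4 members tested were all positive, and 0 of 4 were called by edgeR, where 0.0126% of all genes were. An unadjusted p below 0.05 was found for 3 of the 4, and for 6.42% of all genes. Myog had 1.23 log2 units per somite (SE 0.265, adjusted p = 0.198), Cdh15 0.24 (SE 0.0696, adjusted p = 0.437), Myf5 0.23 (SE 0.0759, adjusted p = 0.532) and Mef2c 0.10 (SE 0.0558, adjusted p = 0.910). Without 1 embryo the slope of Myog was 1.021 to 1.835, and that of Mef2c 0.049 (without control 2) to 0.150. DESeq2 called 1, Myog, with a slope of 1.495 (adjusted p = 0.00744).

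Posterior Myog had 0 counts in both embryos with 20 somites, 33 counts at 21, 8 at 22, 120, 22 and 17 at 23, and 53 and 140 at 24. Posterior Cdh15 was at 2.53 and 3.31 CPM at 20 somites and at 3.83 and 7.78 CPM at 24. Posterior Myf5 was at 2.84 and 5.13 CPM at 20 somites and at 7.62 and 9.0 CPM at 24. The levels at 23 somites spread widely, as for Myog at 0.871 to 3.16 CPM.

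The contractile genes had positive slopes in the anterior piece for 26 of 28 tested (median 0.18, 0 called, 20 with an unadjusted p below 0.05), against a median of 0.00 over all genes. In the posterior piece 18 of 22 were positive (median 0.11, 0 called). Fst, follistatin, an antagonist of activins that is made in the early somite, was the 1 gene of the 5 lists called, with an anterior slope of −0.25 (adjusted p = 0.0141, edgeR). Tissue markers moved with the slopes as well, with 0 called in each list. In the anterior piece all 10 erythroid genes had positive slopes (median 0.24), as did 8 of 10 heart (0.12) and 7 of 12 endothelial genes (0.00). Slopes were negative there for 7 of 8 neural crest (−0.03), 8 of 12 neural tube (−0.02) and 7 of 12 sclerotome genes (−0.01). Of 7 axial bud genes tested there, 4 had positive slopes (median 0.01). In the posterior piece slopes were positive for all 12 sclerotome (median 0.17), 12 neural tube (0.14), 12 endothelial (0.10), 10 erythroid (0.16) and 7 neural crest genes tested (0.12), and negative for 11 of 12 axial bud genes (median −0.14). The part of these differences in the members' slopes was not tested.

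**Figure D4:**
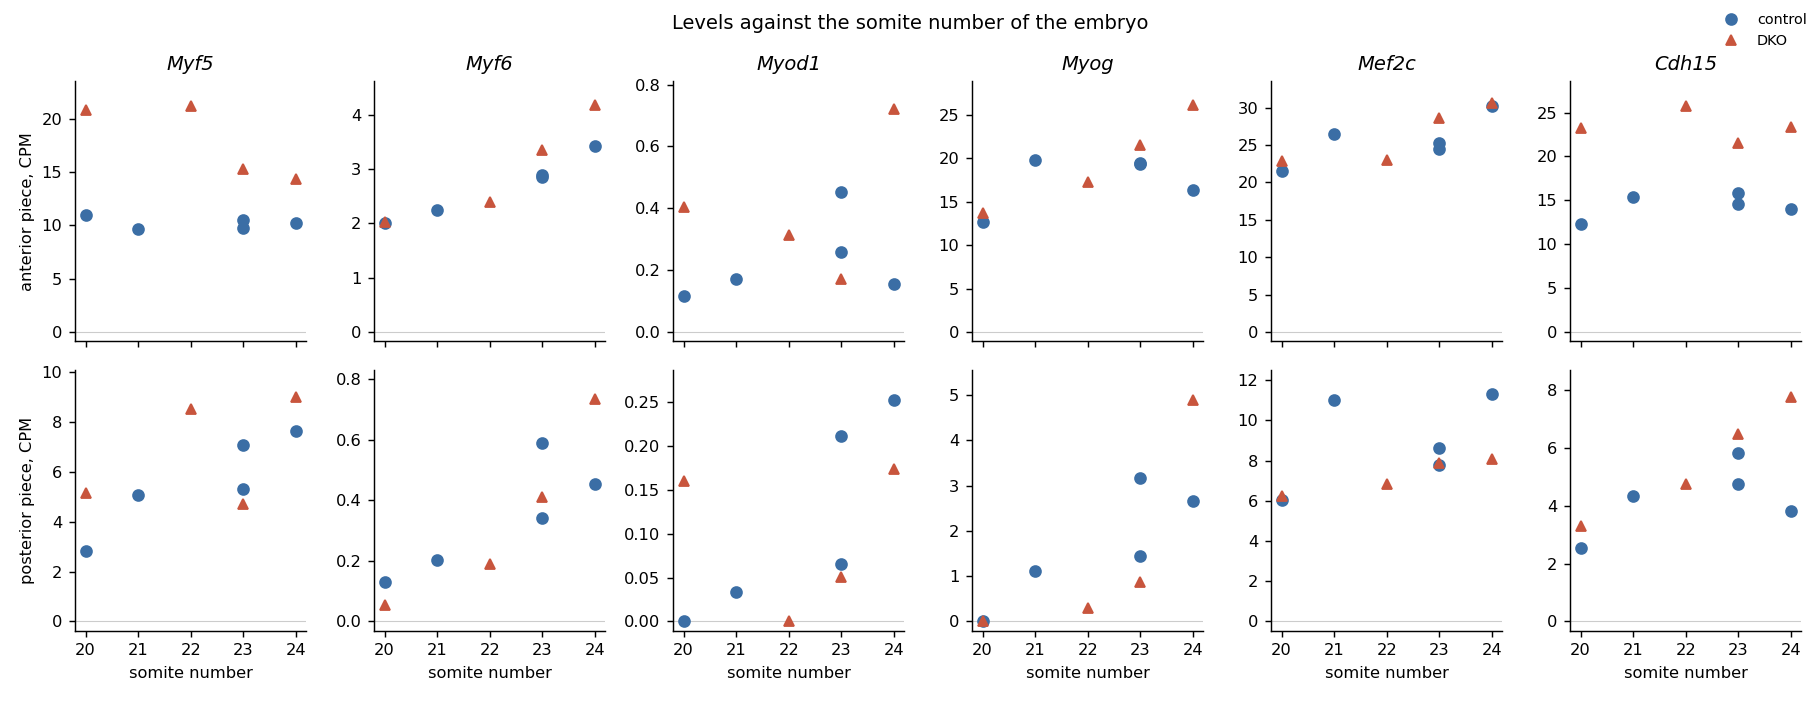
Level of each of the 6 genes in TMM-scaled CPM, on a linear axis that differs between panels, against the somite number of the embryo in anterior (top) and posterior (bottom) pieces; blue circles are control and red triangles DKO embryos, 1 point per library. Posterior Myog is at 0 at 20 somites and at 2.67 and 4.89 CPM at 24, while anterior Myf5 lies between 9.66 and 11 CPM in all control embryos.

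Over the 18 libraries the members' log2 CPM had Pearson correlations of 0.67 to 0.95 with each other, a range that includes the difference between regions. With the mean of each group removed, Myog correlated 0.86 with Cdh15 and 0.85 with Myf6, and the lowest value was 0.27, for Myod1 with Cdh15. In the anterior libraries alone, 9 in number, Myf5 correlated −0.83 with Myog, −0.80 with Mef2c and −0.78 with Myf6, whereas in the 9 posterior libraries the same pairs had 0.77, 0.62 and 0.54. These are descriptions over libraries that share embryos, stages and tissue content.

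The genes whose log2 CPM followed each member most closely over the 18 libraries, of 16428 genes, were taken as the 3 with the highest Pearson correlation. For Myf5 they were Eya2 (0.946), Neurog2 (0.935) and Erbb3 (0.934), and for Cdh15 they were Camk2n2 (0.978), Metrn (0.975) and Btbd17 (0.975). For Myog they were Col26a1 (0.976), Tmem163 (0.964) and Lrrc32 (0.962), and for Myf6 Rab3il1 (0.985), St18 (0.981) and Mybph (0.980), the last a myosin-binding protein. Mef2c was followed most closely by Pbx3 (0.984), Tmtc2 (0.973) and Dpysl3 (0.972), and Myod1, at its few counts, by Tada1 (0.894), Glis2 (0.851) and Gnb5 (0.829). Neurog2 is a gene of neural progenitors, and the libraries share region, embryo and tissue content.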

How the data were processed

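Per the labels, poly(A) RNA of 18 pieces from 9 embryos was made into NEBNext libraries and read on a HiSeq 2500, single-end, 61 bp. The authors deposited expected counts from RSEM for each Ensembl gene, not scaled between libraries. CASAVA, cutadapt, RSEM and the build GRCm38 are named in the submitters' processing notes, and the aligner, versions and use of strand are not given in the sources used here. Of 53465 identifiers, 53360 were found in GENCODE M21 and 105 were not.

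Expected counts were rounded, filtered with filterByExpr (minimum count 10, minimum total 15), scaled by TMM and tested with glmQLFit and glmQLFTest of edgeR 4.0.16 (R 4.3.3), with Benjamini-Hochberg adjustment over all genes tested and a threshold of 0.05. The standard error is the log2 fold change divided by the square root of F. Levels use the TMM factors of all 18 libraries (16428 genes), and log2 CPM for correlations a prior count of 2. The code was tested on simulated data. Reads have no molecular identifiers, and floors reflect counting error alone.

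The 2 libraries of an embryo were matched on genotype, sex label and somite number. Their deviations from group means correlated at 0.256 to 0.570 over genes in all 9 pairs, against −0.283 to 0.0916 for different embryos, so the embryo pairs the regions and entered as a block in an alternative. Each library of a group is another embryo. No 2 libraries were identical, and correlations within groups were 0.9627 to 0.9814.

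The members, the 5 gene lists and the 7 marker lists were chosen with earlier results of these data known. Ntn3 of the adhesion list was not matched. Beside the members, Meis1 and Meis2, genes were named by a rule over genes with a mean of at least 50 counts. For each list it took the largest positive and negative fold change in genotype comparisons, up to 2 each way among called genes in region comparisons, and all called genes; 1 gene so named is not reported here. A few list genes called or used to describe tissue content (Hes5, T, Msgn1) were named after their values were seen. Alternatives were other size factors, DESeq2 1.42.0, limma-voom (limma 3.58.1), other filters, unrounded counts, somite number or sex label as covariates, a joint fit of the 18 libraries, the embryo block, slopes with no genotype term or in each genotype alone, and leaving out each embryo.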

Additional observations from a re-analysis of the deposited data

How the results depend on the processing

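Over the members' fold changes and slopes, alternatives kept direction and side of the threshold 525 times, moved a value past it 7 times, below it 7 times and reversed a sign 16 times. With the embryo as a replicate block, the 5 members were lower in the posterior piece in each genotype, with Myf5 at −0.93 in controls and −1.40 in DKO, and it changed no call of a member. The number of members past the threshold in the anterior genotype comparison is no test, since it led to their choice; it was 1 and became 2 with DESeq2, with no filter on low counts, with somite number as covariate and with sex label (wrong for 1 embryo by Y-linked counts) as covariate, 0 with all 18 libraries in one fit, and 0 to 2 without 1 embryo (0 without control 2, 3, 4 or 5 or DKO 1 or 3, and 2 without DKO 2). The number with a called slope, 0, became 1 with DESeq2 in each region. No value that reversed was past the threshold in any of these fits. Without 1 embryo, the posterior effect on Myog ranged from −2.102 to 0.270, the anterior effects on Mef2c from −0.039 to 0.104 and on Myf6 from −0.029 to 0.303, the interactions of Myog from −2.127 to 0.135 and of Myf6 from −0.547 to 0.166, and the anterior slope of Cdh15 from −0.022 to 0.025. That slope was −0.014 in DKO embryos alone. The cause of these changes was not tested.

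Counts over all genes depended more on the setting. They ranged over the alternatives from 1 to 161 for the posterior genotype effect (2 as reported), from 1 to 296 for the anterior effect (6), from 0 to 10 for the interaction (0), from 0 to 352 and 0 to 141 for the anterior and posterior slopes (5 and 2), and from 1728 to 3393 for the region in DKO (2913), the highest with DESeq2 in each, and from 2922 to 5136 for the region in controls (3884), the highest with the embryo block. Without DKO embryo 1 the region count in DKO was 1728. Among the members, mean counts were lowest for Myod1, posterior Myf6 and posterior Myog. The part of depth in the spread of posterior Myog between embryos was not tested. Without the filter, Myod1 had adjusted p-values of 0.138 to 1.0, and Myf6 a posterior genotype effect of 0.09 (SE 0.611).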
